A study of Mus musculus with 12 samples.

Results

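The genes described here are the heat shock proteins and J-domain chaperones, chosen by name: every protein-coding gene whose mouse symbol begins with Hspa, Hspb, Hspd, Hspe, Hsph, Hsp90 or Dnaj, together with Hsf1. The rule found 75 genes among the 27179 Entrez identifiers that the deposited count tables share, and left out 16 pseudogenes with such names. They were read in adipose tissue of wild-type (WT) C57BL/6J mice at day 7, with 3 libraries in each of 4 groups: Adult control and Aged control mice, which were untreated, and Adult burn and Aged burn mice, which had a scald burn injury. The scald was a bath at 98 °C. Dorsal immersion lasted 10 s in burned mice of each age, and adults had an added ventral immersion of 2 s, which gave burns of 30% of the body surface in adults against 20% in aged mice. Buprenorphine was used against pain, and the sources do not say whether untreated mice had it too. Fat depot, sex and exact age are not stated either. Since the labels name no mouse for a library, a p-value here describes how libraries vary, which may be technical in part. Adult and aged libraries were deposited in separate tables, so age cannot be told apart from the table and, after burn, from the size of the burn.

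Heat shock proteins are chaperones: they bind unfolded stretches of other proteins and help them fold, refold or be degraded. HSP70 proteins work in cycles of ATP hydrolysis that J-domain proteins (Dnaja, Dnajb and Dnajc genes) start and direct to a site or client, HSP90 proteins act on kinases and receptors late in folding, and small heat shock proteins (Hspb genes) hold unfolded proteins without using ATP. Each compartment has its own set. The transcription factor HSF1 switches on the cytosolic set after heat or proteotoxic stress, the unfolded protein response switches on the set of the endoplasmic reticulum, where secreted proteins fold, and mitochondria import proteins with Hspa9 and fold them with Hspd1 and Hspe1.

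Library totals ran from 25231506 to 46531070 counts, and the 75 genes held between 0.525% and 0.647% of them. Adipoq, the adipocyte hormone adiponectin, was at 727 to 4180 CPM (counts scaled to a library of 1000000, with TMM factors over the 12 libraries), so the tissue label was borne out in every library. Markers of other cells set 3 libraries apart. Summed over 12 lymphocyte markers, Adult control 1 was at 2040 CPM against 13.4 to 22.5 in the other adult libraries, and summed over 14 skeletal muscle markers, Adult burn 1 was at 3960 CPM against 55.6 to 137. Aged burn 2 was highest for 12 macrophage markers (16600 CPM, against 5900 and 3270 in the other burned aged libraries) and for 12 neutrophil markers (1920 CPM, against 65 and 55.3), and lowest for 12 adipocyte markers (11000 CPM, against 27900 and 31200). In bulk tissue, fewer cells of a type and less RNA per cell cannot be told apart.

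Some chaperone genes were abundant in fat and others close to absent. Levels per kilobase were taken over the union of all annotated exons of a gene. This length can exceed that of the transcript made, so genes can be set side by side only roughly. On this scale the adult control mean was 323 CPM per kilobase for Hsp90ab1, the constitutive cytosolic HSP90. Next came Hsp90b1, the HSP90 of the endoplasmic reticulum (134), Hspa9, the mitochondrial HSP70 (128), Hspa8, the constitutive cytosolic HSP70 (109), Hspa5, also called BiP, the HSP70 of the endoplasmic reticulum (103), and Hspd1, the mitochondrial HSP60 (99.1). The order from Hsp90b1 to Hspd1 lies within the spread of these libraries, since the SDs of Hspa9 and Hspa8 in CPM were 155 and 104 around means of 551 and 468. The stress-inducible HSP70 genes stood at the other end, with 0.415 CPM per kilobase for Hspa1a and 0.576 for Hspa1b.

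Hspa1a and Hspa1b lie side by side on chromosome 17 (chr17:34969359-34972156 and chr17:34956429-34959238, GRCm38) and encode nearly the same protein. Hspa1a was at 1.14, 1.16 and 1.39 CPM in adult controls, 1.32, 0.68 and 1.23 in burned adults, 1.27, 0.982 and 1.35 in aged controls and 0.833, 1.02 and 1.45 in burned aged mice. Hspa1b was at 0.936 to 2.29 CPM in the 12 libraries. Burned and control mice overlapped within each age for both genes, so that at day 7 the classical heat-inducible pair was low everywhere, with 16 to 76 reads a library. Of the 50-base words of the Hspa1a transcripts, 58.8% also occur in those of Hspa1b, and reads from them may have been dropped or split in the authors' counting. Hsf1, the regulator itself, was at 27.2 ± 12.3 CPM in adult controls (SD, n = 3, as for all levels below), 19.6 ± 2.3 in burned adults, 25.6 ± 1.39 in aged controls and 25 ± 1.86 in burned aged mice. Its highest value, 41.2 CPM, was in Adult control 1, beside the lymphocyte markers of that library; their part in it was not tested.

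In burned adult mice no chaperone gene passed the test, while all 9 mitochondrial members had positive log2 fold changes. Burn was tested with edgeR's quasi-likelihood test within each age, with Benjamini-Hochberg adjustment over all genes and a threshold of 0.05. Of the 75 genes, 66 passed the filter on low counts and 0 were called, where 0.0411% of the 14600 genes tested were; 5 had an unadjusted p under 0.05, where 4.37% of all genes did, and DESeq2 also called 0, against 0.425% of all genes. Their log2 fold changes had a median of 0.05, against -0.04 over all genes, of which 45.1% had a positive one. Simulated counts with this spread gave back 2 of 98 genes changed 2-fold and 50 of 98 changed 4-fold, so changes of the size seen here were mostly below what these libraries can show. The largest change was that of Dnajc22, named after its values were seen, with at most 20 reads a library. It was at 0.207, 0 and 0.0386 CPM in adult controls and 0.8, 0.808 and 0.851 after burn, and was not called.

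Mitochondrial chaperones in adult mice stood as follows. Dnaja3, the J-domain partner of Hspa9 in the matrix (also called Tid1, chr16:4684070-4707695), was at 65.5, 95.5 and 100 CPM in controls and 143, 145 and 148 after burn (log2 fold change 0.74 ± 0.18 SE, adjusted p = 0.788). Hspa9 was at 381, 591 and 683 CPM in controls and 871, 793 and 938 after burn (log2 0.65 ± 0.27), and Hspd1 at 197, 287 and 302 against 371, 381 and 407 (log2 0.56 ± 0.21). All burned adults lay above all controls for these 3 genes, as they did for Dnajc11 and Dnajc28. That made 5 of the 9 mitochondrial members, where 6.77% of all genes tested had burned adults wholly above controls and 3.42% wholly below; over all members the counts were 8 and 1. All 9 had positive log2 fold changes (median 0.50) and none was called. Dnajc15, a J-domain protein at the inner membrane's import channel, was at 62.6, 122 and 213 CPM in controls and 178, 169 and 217 after burn (log2 0.50 ± 0.41), and Hspe1, the HSP10 that caps Hspd1, at 95.4 ± 43 and 117 ± 20 CPM (log2 0.29 ± 0.32). The groups overlapped for both. Without Adult control 1 the log2 fold changes were 0.15 for Dnajc15, 0.07 for Hspe1 and 0.43 for Hspa9, and without Adult control 3 they were 1.03 for Dnajc15 and 0.72 for Hspe1; Hspe1 was at 0.15 without Adult control 2 and 0.16 without Adult burn 3. Adult control 1 was the lowest control for each of the genes named here, and its 12 adipocyte markers summed to 22600 CPM against 50500 and 60400 in the other adult controls; the part of this in the mitochondrial values was not tested.

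**Figure D1:**
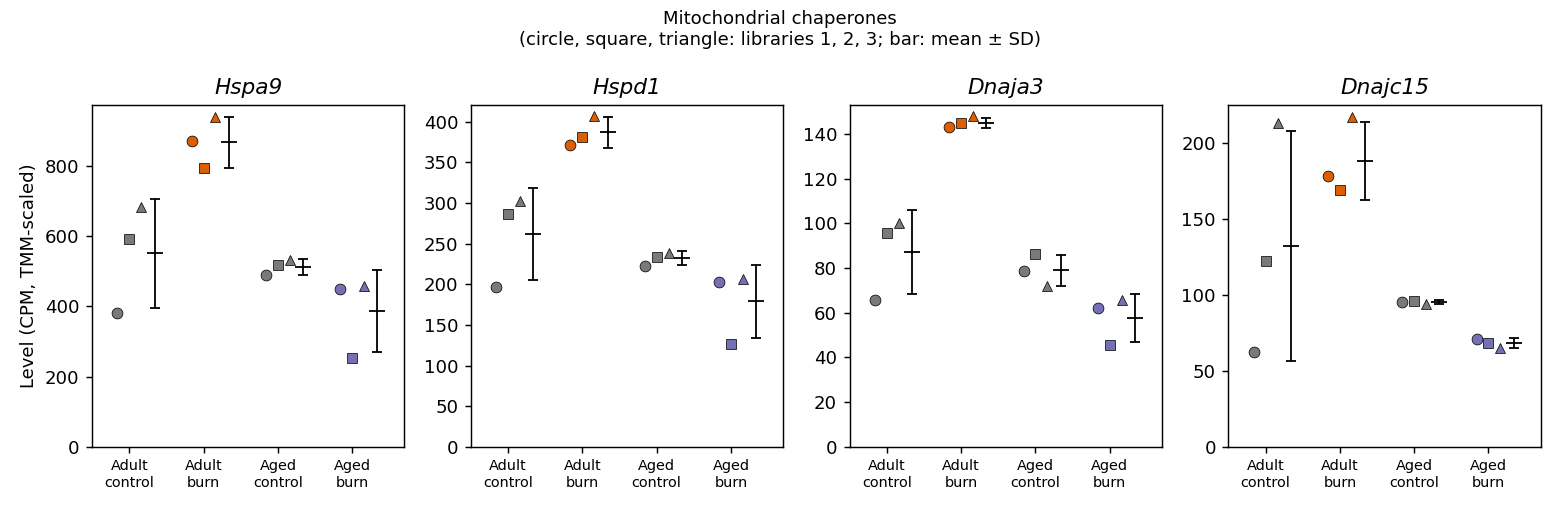
Levels of 4 mitochondrial chaperone genes in CPM (vertical axis, from 0) in the 4 groups; each symbol is a library and the bar is the mean ± SD of 3 libraries. For Dnaja3 the burned adults (143 to 148 CPM) lie above every other library, and the burned aged mice (45.4 to 65.5 CPM) below every library except Adult control 1.

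The 4 small heat shock genes that passed the filter in adults also had positive log2 fold changes throughout (median 0.33), and no test compared the compartments. The 14 members of the endoplasmic reticulum had log2 fold changes of -0.15 to 0.38, the largest that of Dnajb9 (49.5 ± 16.9 and 64.6 ± 5.66 CPM, 0.38 ± 0.25 SE), a BiP co-chaperone also called ERdj4; it was 0.15 without Adult control 1 and 0.66 without Adult control 3. Hspa8 was at 430, 389 and 585 CPM in adult controls and 310, 664 and 479 after burn, and Hsp90ab1 at 968 ± 33 and 1010 ± 133 CPM. Dnajc9, a histone chaperone and co-chaperone made in dividing cells, was at 40.3, 18.4 and 20.7 CPM in controls and 16.2, 17.4 and 20.6 after burn (log2 -0.56 ± 0.33, and -0.13 without Adult control 1). Adult control 1, the high library, also held 27.7 CPM of the proliferation marker Mki67 against 7.06 and 17.3 in the other controls. Adult burn 3 held 26.1 CPM of Mki67 and 20.6 CPM of Dnajc9. The part of dividing cells in the Dnajc9 values was not tested. Among the small heat shock proteins, Hspb6, which is abundant in muscle, was at 8.93, 19 and 10.4 CPM in controls and 29.9, 15.5 and 14.8 after burn (log2 0.65 ± 0.40, and 0.25 without Adult burn 1, 0.43 without Adult control 1 and 1.05 without Adult control 2). Its highest value was in Adult burn 1, and Hspb7, a small heat shock protein of heart and skeletal muscle, was at 4.84 CPM there against at most 1.55 in the other adult libraries. The skeletal actin gene Acta1 was at 735 CPM in that library against at most 16.6 in other adult ones; its share in these values was not tested.

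In burned aged mice 3 chaperone genes passed the test. Dnajb11, a co-chaperone of BiP in the endoplasmic reticulum, rose, while Dnajc21, a cytosolic and nucleolar J-domain protein that works in ribosome assembly, and Dnajc15 fell. Of the 75 genes, 68 passed the filter, and 1 was called higher and 2 lower, or 4.41% of those tested. Over all 15132 genes tested 16.7% were called, 13.7% higher and 3.03% lower. A further 18 members had an unadjusted p under 0.05, for 21 of 68 in all, where 38.5% of all genes did. DESeq2 called 17, 7 higher and 10 lower, with all 3 genes among them, and called 33.1% of all genes. The count of members changed when a single library was left out. It was 0 without Aged control 1, Aged control 2, Aged control 3 or Aged burn 1. It was 10 without Aged burn 2 and 21 without Aged burn 3. Over all genes the count also moved in such fits, from 0 to 5743. Log2 fold changes of the members lay between -1.44 and 1.02, and simulated counts of this comparison gave back 5 of 97 genes changed 2-fold and 65 of 99 changed 4-fold. The simulation had 75 calls where the data had 2534. Adjustment is less strict when more genes change, so these shares do not give the reach of the test in the data.

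In the endoplasmic reticulum 9 of the 14 members had positive and 5 negative log2 fold changes after burn in aged mice (median 0.14, against -0.01 over all genes), and 1 was called. Over all genes tested 49.2% had a positive log2 fold change. Dnajb11 (Entrez 67838, chr16:22857845-22879634) was at 51.5, 45.5 and 47.6 CPM in aged controls and 79.3, 88.9 and 58.8 after burn, a log2 fold change of 0.65 ± 0.17 SE (adjusted p = 0.0487). All burned aged libraries lay above all aged controls, and the adult libraries lay between 55.4 and 67.7 CPM. Aged burn 3 had the smallest rise. Without Aged burn 2 the log2 fold change was 0.52 (adjusted p = 0.0486), but the call was lost with RLE size factors (adjusted p = 0.0536), without the filter (adjusted p = 0.0582) and without Aged burn 1 or any 1 of the aged controls (adjusted p = 0.136 to 0.174).

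Hspa5 was at 408, 353 and 386 CPM in aged controls and 566, 676 and 518 after burn (log2 0.62 ± 0.18, adjusted p = 0.0649). Hsp90b1 was at 440, 415 and 443 CPM and 617, 710 and 511 (log2 0.50 ± 0.19, adjusted p = 0.109). Both had every burned library above every aged control and missed the threshold; DESeq2 called each, with adjusted p = 0.00186 and 0.0202. The same separation held for Dnajb9 (38.5 ± 1.5 and 46.1 ± 1.41 CPM, log2 0.26 ± 0.10), for the membrane co-chaperone Dnajb14 and for Dnajc10, a disulfide reductase also called ERdj5 (58.9 ± 6.8 and 82.3 ± 14.3 CPM, log2 0.48 ± 0.17), the last 2 named after their values were seen. These were 6 of 14 members, where 26.3% of all genes had burned aged mice wholly above controls. Dnajc3, an inhibitor of the stress kinase PERK that also serves as a BiP co-chaperone, did not follow: it was at 133, 122 and 137 CPM in aged controls and 130, 132 and 127 after burn. Dnajc14 was the one member of the 14 whose burned libraries all lay lower.

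**Figure D2:**
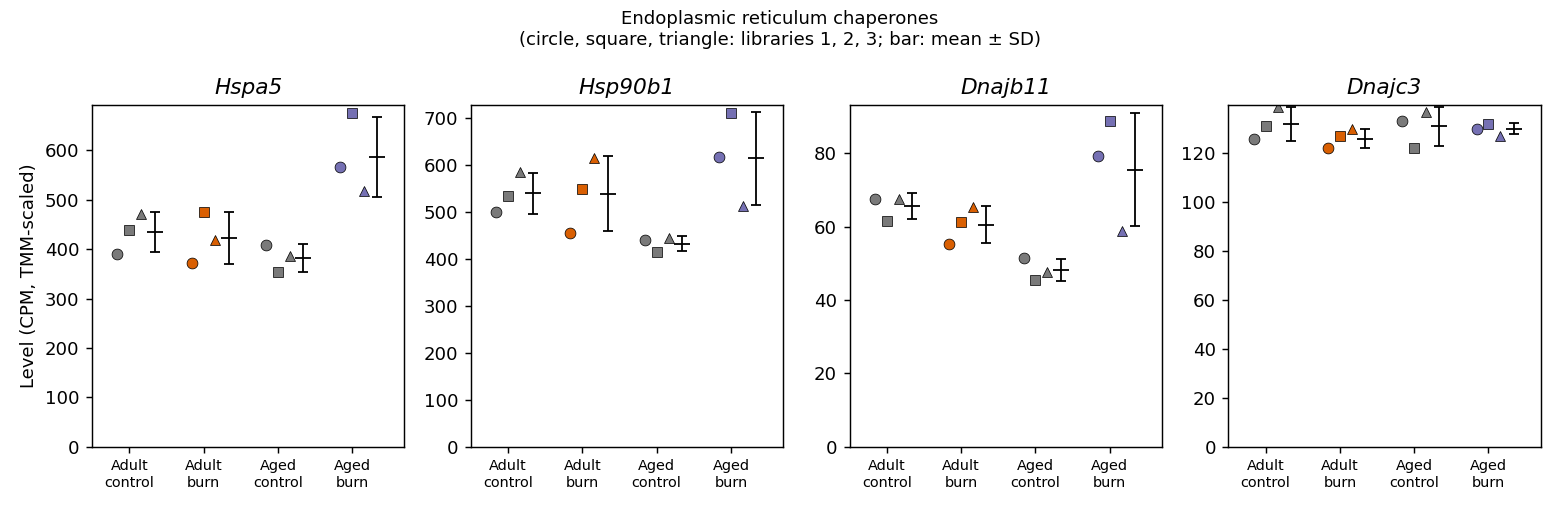
Levels of 4 chaperone genes of the endoplasmic reticulum in CPM (vertical axis, from 0) in the 4 groups; each symbol is a library and the bar is the mean ± SD of 3 libraries. For Hspa5, Hsp90b1 and Dnajb11 the burned aged libraries lie above the aged controls, and for Dnajc3 the 4 groups overlap near 130 CPM.

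The promoters of these genes are shown because Hspa5 and Hsp90b1 are textbook targets of the unfolded protein response, through the ER stress element, in which CCAAT and CCACG lie 9 bases apart. The 250 bases before the annotated start are given 5′ to 3′ on the gene's own strand, from RefSeq on GRCm38.p6, in lower case with matches to this element on either strand in capitals.
Hspa5 (chr2:34771840-34772089, plus strand): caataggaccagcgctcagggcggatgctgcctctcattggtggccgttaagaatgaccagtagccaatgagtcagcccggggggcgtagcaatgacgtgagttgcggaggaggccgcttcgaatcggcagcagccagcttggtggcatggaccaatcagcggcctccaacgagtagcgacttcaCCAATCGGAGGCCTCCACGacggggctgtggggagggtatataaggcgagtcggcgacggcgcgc
Hsp90b1 (chr10:86705445-86705694, minus strand): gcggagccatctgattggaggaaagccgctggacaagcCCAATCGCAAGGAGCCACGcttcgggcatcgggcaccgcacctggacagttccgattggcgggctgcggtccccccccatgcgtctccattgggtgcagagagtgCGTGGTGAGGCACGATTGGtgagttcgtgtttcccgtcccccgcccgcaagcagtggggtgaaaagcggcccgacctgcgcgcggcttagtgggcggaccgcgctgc
Dnajc3 (chr14:118937682-118937931, plus strand): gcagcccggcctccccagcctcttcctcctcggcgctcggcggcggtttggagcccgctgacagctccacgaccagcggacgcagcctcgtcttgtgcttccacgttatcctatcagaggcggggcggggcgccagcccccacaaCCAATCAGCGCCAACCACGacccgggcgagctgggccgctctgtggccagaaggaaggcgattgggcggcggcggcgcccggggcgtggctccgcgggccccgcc
Dnajb11 (chr16:22857595-22857844, plus strand): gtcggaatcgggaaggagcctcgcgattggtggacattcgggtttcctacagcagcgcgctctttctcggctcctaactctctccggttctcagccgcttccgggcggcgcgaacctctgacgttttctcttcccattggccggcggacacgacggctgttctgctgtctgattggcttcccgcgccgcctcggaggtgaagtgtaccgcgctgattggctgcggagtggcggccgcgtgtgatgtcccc
Hspa5 held 1 match, 65 bases before the start, Hsp90b1 held 2, at 212 bases and, on the other strand, 107 bases before it, and Dnajc3 held 1, at 105 bases. Dnajb11 held none in this window. RefSeq windows that add the first 50 bases after the start were at hand for 60 of the 75 genes, in 77 windows, and the element was in 3 of these (3.9%) against 0.119% of all 32851 windows. Of the 3 genes with a match, Hspa5 and Hsp90b1 had separated groups in aged mice and Dnajc3 did not.

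Other genes of the endoplasmic reticulum's stress response moved in aged mice as well. Of 21 such genes in a list of folding enzymes, sensors and stress factors, 6 were called higher and 0 lower, where 13.7% and 3.03% of all genes were. Positive log2 fold changes were found for 16 of the 21, where 49.2% of all genes had one, and the median was 0.41. Sdf2l1, a partner of BiP and Dnajb11, had group means of 9.13 and 37.3 CPM (log2 2.03 ± 0.29, adjusted p = 0.00926), and Hyou1, a large HSP70-like exchange factor for BiP, 61.2 and 93.8 CPM (log2 0.62 ± 0.10, adjusted p = 0.0131). The other 4 called higher were Ern1, Creld2, Pdia3 and Manf. Not all genes of the list went this way. Xbp1 had means of 286 ± 20.1 CPM in aged controls and 217 ± 21 after burn, and Sil1 60.1 ± 1.05 and 47 ± 10.9. Neither was called, and both were named after their values were seen. Sdf2l1 lost its call without Aged control 1 (adjusted p = 0.0505) or 3 (adjusted p = 0.055), and Hyou1 without Aged burn 1 or any 1 of the aged controls (adjusted p = 0.0587 to 0.0857). In adults 0 of the 21 were called by edgeR and 7 had positive fold changes. In burned aged mice 10 of 12 macrophage and 12 of 12 proliferation markers were called higher. Summed macrophage markers ran from 541 to 960 CPM in aged controls and reached 3270 to 16600 CPM in burned ones, in the order Aged burn 2, 1 and 3 that Dnajb11 and Hspa5 also follow; whether more macrophages or dividing cells account for the chaperone values was not tested.

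Among the cytosolic chaperones of aged mice Dnajc21 was the one that passed. Of the 10 members of the cytosolic HSP70 system 6 had positive and 4 negative log2 fold changes (median 0.11). Of these 10, 3 were wholly higher after burn and 1, Hspa2, wholly lower, where 26.3% and 24.3% of all genes were. Hspa8 (chr9:40801276-40805202) was at 338, 288 and 395 CPM in aged controls and 691, 925 and 451 after burn (log2 1.02 ± 0.30, adjusted p = 0.0639; DESeq2 adjusted p = 0.00803). The groups did not overlap, and Aged burn 3 was nearest to the controls. Hsph1, the HSP110 exchange factor of HSP70, was at 27.3, 19.6 and 25.6 CPM and 37.1, 31.8 and 39.2 (log2 0.58 ± 0.16, adjusted p = 0.0583). Hspa4, a second HSP110, was at 142 ± 7.5 and 162 ± 2.85 CPM and Hsp90ab1 at 711 ± 25 and 851 ± 96.7 CPM (log2 0.26 ± 0.19), again with no overlap. The inducible Hsp90aa1 was at 176 ± 12 and 178 ± 12.5 CPM and Dnajb1, the HSP40 that HSF1 induces, at 37.1 ± 3.6 and 39.6 ± 5.99 CPM, with overlap in both. Of 26 cytosolic co-chaperones and other heat shock genes outside the family, 16 had positive log2 fold changes, where 49.2% of all genes did. Of the 26, 1 was called higher and 0 lower, where 13.7% and 3.03% of all genes were. The called gene was Ahsa1, which speeds the ATPase of HSP90, with means of 57 and 86.1 CPM (log2 0.60 ± 0.13, adjusted p = 0.0322). Its call was lost without Aged burn 1 or any 1 of the aged controls (adjusted p = 0.0975 to 0.146).

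Dnajc21 (Entrez 78244, chr15:10446763-10470568) was at 35.4, 36 and 39.5 CPM in aged controls and 25.5, 20.5 and 24.5 after burn, a log2 fold change of -0.65 ± 0.13 (adjusted p = 0.0229). Every burned aged library lay below every other library of the study. Without Aged burn 2 the value was -0.56 (adjusted p = 0.0166), and without Aged burn 1 or any 1 of the aged controls adjusted p was 0.06 to 0.0935. Dnajb4, a heat-inducible HSP40, was at 81.1, 76.8 and 102 CPM in aged controls and 52.2, 32 and 60.6 after burn (log2 -0.84 ± 0.25, adjusted p = 0.0663). Aged controls were the group that stood apart here, since adult libraries held 29.1 to 50 CPM. Hspa2, an HSP70 best known from the testis, was at 15.8 ± 0.993 and 10.3 ± 2.08 CPM (log2 -0.62 ± 0.18, adjusted p = 0.0642), and Dnaja1, a general HSP40, at 98.6 ± 6.83 and 85.9 ± 5.02 CPM. Dnajc9 was at 17.6, 15.9 and 16.8 CPM and 29.8, 27.1 and 18 (log2 0.57 ± 0.20, adjusted p = 0.0963), beside 12 proliferation markers that summed to 10.4 to 16.5 CPM in aged controls and 264 to 580 CPM after burn. Whether dividing cells carry the Dnajc9 values was not tested.

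Hspb8, a small heat shock protein that works with Bag3 in the removal of damaged proteins, was at 123, 143 and 89.9 CPM in aged controls and 64.2, 38.7 and 75.4 after burn (log2 -1.0 ± 0.29, adjusted p = 0.0603). The groups did not overlap, and Aged burn 2 was lowest. Hspb1, also called HSP25 in mice, was at 35.5, 26 and 42.4 CPM and 25.2, 11.8 and 35.3 (log2 -0.52 ± 0.40), and Hspb6 at 31.7 ± 7.48 and 20.8 ± 8.63 CPM (log2 -0.60 ± 0.36). Without Aged burn 2 these values were -0.19 and -0.30, and without Aged burn 3 that of Hspb1 was -0.91. Of the 5 small heat shock genes that passed the filter all had negative fold changes and 0 were called by edgeR, while DESeq2 called Hspb8 (adjusted p = 0.00826). The atypical HSP70 genes Hspa12a and Hspa12b had the same order of libraries. Hspa12a was at 226, 227 and 222 CPM in aged controls and 77.8, 26.5 and 144 after burn (log2 -1.44 ± 0.55, adjusted p = 0.108), and Hspa12b, which is made in endothelium, at 49.4 ± 6.24 and 28.3 ± 12.2 CPM (log2 -0.80 ± 0.34, and -0.50 without Aged burn 2). The adipocyte markers had the same order, at 50500 to 57800 CPM in aged controls and, in Aged burn 2, 1 and 3, 11000, 27900 and 31200. Of these 12 markers, 0 had a positive log2 fold change (median -1.16) and 1 was called lower. Their part in these values was not tested.

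**Figure D3:**
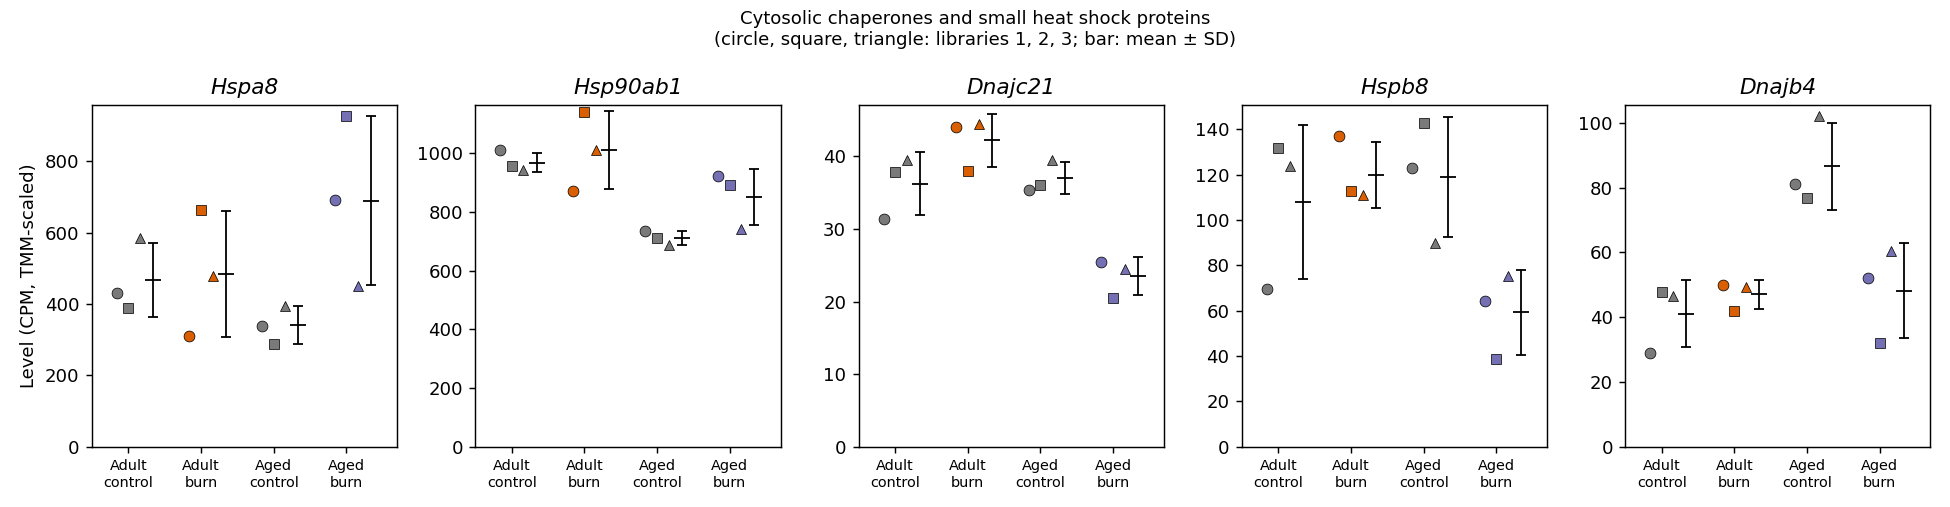
Levels of 5 cytosolic genes in CPM (vertical axis, from 0) in the 4 groups; each symbol is a library and the bar is the mean ± SD of 3 libraries. Burned aged libraries lie above aged controls for Hspa8 (451 to 925 CPM) and below them for Dnajc21, Hspb8 and Dnajb4.

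Of the 9 mitochondrial chaperones 8 had negative log2 fold changes in burned aged mice and 1, Hspe1, a positive one (median -0.37), and 1 was called. Over all genes tested 49.2% had a positive log2 fold change. Dnajc15 (Entrez 66148, chr14:77826217-77874917) fell, from 95.1, 96.2 and 93.6 CPM in aged controls to 71.1, 68.4 and 64.9 after burn (log2 -0.48 ± 0.10, adjusted p = 0.0281). The values were tight within each group and did not overlap. Without Aged burn 2 the log2 fold change was still -0.48 (adjusted p = 0.0224), and without Aged burn 1 or any 1 of the aged controls adjusted p was 0.0842 to 0.122; in a fit of all 12 libraries, where the wide adult values enter the spread, it was 0.3. Dnaja3 was at 78.9, 86.1 and 72 CPM and 62.3, 45.4 and 65.5 (log2 -0.45 ± 0.17, adjusted p = 0.107). Hspa9 was at 488, 518 and 533 CPM and 450, 252 and 457 (log2 -0.41 ± 0.26), and Hspd1 at 222, 234 and 239 CPM and 203, 127 and 206 (log2 -0.37 ± 0.21). For these 3 genes the groups did not overlap and Aged burn 2 lay far below the rest; without it the log2 fold change was -0.18 for Hspa9 and for Hspd1. With Dnajc15 and Dnajc30 they made 5 of 9 members whose burned libraries were wholly lower, where 24.3% of all genes were. Over all 68 members tested in aged mice, 17 were wholly lower and 13 wholly higher, where 24.3% and 26.3% of all genes were. Hspe1 was at 56.2 ± 5.32 and 65 ± 10.8 CPM, with overlap.

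Hspd1 and Hspe1, the HSP60 and HSP10 that form the folding chamber, are transcribed away from each other on chromosome 1. Their annotated spans (chr1:55077833-55088243 and chr1:55088148-55091317) share 96 bases, and no source states whether the counting used strand, so reads from that stretch cannot be told apart. Hspd1, Hspe1, Hspa9 and Dnaja1 have pseudogenes among those left out, and no source states how reads that match several places were counted, so the levels of these genes are uncertain to that extent. Hspd1 has an annotated start at the upper end of its span and another inside the span. Between that inner start and the start of Hspe1 lies an element of the kind bound by HSF1, at chr1:55088059-55088076. It is shown, with the motif in capitals, because the pair shares it, and its distance for Hspd1 is counted from the inner start. The window of the outer Hspd1 start (chr1:55088194-55088493) held 0 matches to the motifs searched.
Hspd1 strand, 144 bases before its start: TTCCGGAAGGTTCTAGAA
Hspe1 strand, 89 bases before its start: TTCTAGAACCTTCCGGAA
These are the same 18 bases read on each strand and hold overlapping matches to a three-unit heat shock element, TTCNNGAA followed by NNTTC. That motif, searched on both strands, was in the windows of Hspd1, Hspe1, Hsph1 and Dnajb6 and in 0.603% of all 32851 windows. Either shorter core, TTCNNGAA or GAANNTTC, which the longer motif contains, was in 23.4% of the members' windows and 15.1% of all. Overlapping windows of a gene, as for Hsph1 and Dnajb6, can repeat a site. Counted by gene, a core was in 16 of 60 members and 4587 of 27025 genes. Hsp90aa1 and Hsp90ab1 had no window and are not in these shares. Hspa1a and Hspa1b each held GAAGATTC.

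To ask whether burn acted alike at both ages, the log2 response in adult mice was subtracted from that in aged mice, in a fit of all 12 libraries. Dnaja3 and Dnajc21 had a lower log2 response in aged than in adult mice, and Dnajb11 a higher one. Of 69 members tested, 1 was called higher and 2 lower (4.35%), where 11.9% of 15553 genes were called, 9.64% higher and 2.22% lower; 17 of 69 members had an unadjusted p under 0.05, where 34.5% of all genes did, and DESeq2 called 12, with these 3 among them, and 24.3% of all genes. The difference was -1.19 ± 0.26 for Dnaja3 (adjusted p = 0.0227), -0.87 ± 0.19 for Dnajc21 (adjusted p = 0.0233) and 0.76 ± 0.21 for Dnajb11 (adjusted p = 0.0434). Within adults the log2 fold changes were 0.74, 0.21 (0.11 without Adult control 1) and -0.12 (-0.06 without Adult burn 1), and within aged mice -0.45, -0.65 and 0.65. The call of Dnaja3 was lost without Adult burn 1 or 2 or any 1 of the aged controls (adjusted p = 0.0575 to 0.0742). Leaving out Adult control 1 gave -1.02 and leaving out Aged burn 2 gave -1.05, both called, and without Adult control 1 and Adult burn 1 together it was -1.04 (adjusted p = 0.0661). Leaving out that pair likewise ended the calls of Dnajc21 (-0.75, adjusted p = 0.0828) and Dnajb11 (0.68, adjusted p = 0.155). Dnajc21 also lost its call without any 1 of the burned adults or aged controls (adjusted p = 0.0512 to 0.0726). Of the fits with 1 library left out, Dnajb11 was called in those without Adult control 2 and without Aged burn 3, and RLE size factors (adjusted p = 0.0567) or no filter (adjusted p = 0.0613) ended its call. The count of members was 14 without Aged burn 3 and 0 without Adult burn 1, Adult burn 2 or any 1 of the aged controls. It was 1, Dnaja3, without Adult burn 3. Over all genes the count moved too, from 0 to 4039 with a library left out.

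All 9 mitochondrial members had a negative difference (median -0.94, against 0.05 over all genes), as did all 5 small heat shock genes tested (median -1.26). Over all genes tested 52.4% had a positive difference. Among the mitochondrial ones were Hspd1 at -0.94 ± 0.30 (adjusted p = 0.0629), Hspa9 at -1.06 ± 0.38 (adjusted p = 0.0814) and Dnajc15 at -0.98 ± 0.46 (adjusted p = 0.157; -0.64 without Adult control 1 and -1.51 without Adult control 3). Of 14 genes of mitochondrial protein quality control outside the family, 3 were lower and 0 higher in the same test. Over all genes 2.22% were lower and 9.64% higher. The 3 were the protease subunit gene Clpp (-1.08 ± 0.31, adjusted p = 0.0459), the gene of the mitochondrial processing peptidase's beta subunit, Pmpcb (-1.07 ± 0.31, adjusted p = 0.0489) and the disaggregase gene Clpb (-1.29 ± 0.38, adjusted p = 0.0498). All 3 were close to the threshold: each lost its call without the filter (adjusted p = 0.0569 to 0.0625), without any 1 of the burned adults or aged controls, and without Aged burn 1 or Aged burn 2 (adjusted p = 0.0659 to 0.119 with a library left out), Clpp and Clpb also without Adult control 1 (adjusted p = 0.0617 and 0.081) and Clpb without Adult control 3 (adjusted p = 0.0565). Burn changed none of the 14 past the threshold of edgeR within either age; Trap1, the mitochondrial HSP90, had means of 192, 243, 219 and 133 CPM in Adult control, Adult burn, Aged control and Aged burn mice. In the list of endoplasmic reticulum stress genes 1 of 21 was higher in this test, where 9.64% of all genes were. This was Sdf2l1 (2.36 ± 0.45, adjusted p = 0.0172). Its call was lost without Adult burn 1, Adult burn 2, Aged control 2 or Aged control 3 (adjusted p = 0.0534 to 0.0616). The adipocyte markers had a median difference of -1.44 with 0 of 12 called; their part in the mitochondrial differences was not tested. In the other compartments Hspa5 differed by 0.66 ± 0.24 (adjusted p = 0.0855), Hsp90b1 by 0.51 ± 0.25, Hspa8 by 0.97 ± 0.46, Dnajb4 by -1.04 ± 0.35, Hspb8 by -1.15 ± 0.41 and Dnajc9 by 1.13 ± 0.41 (0.69 without Adult control 1), all with adjusted p of 0.0726 or more.

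**Figure D4:**
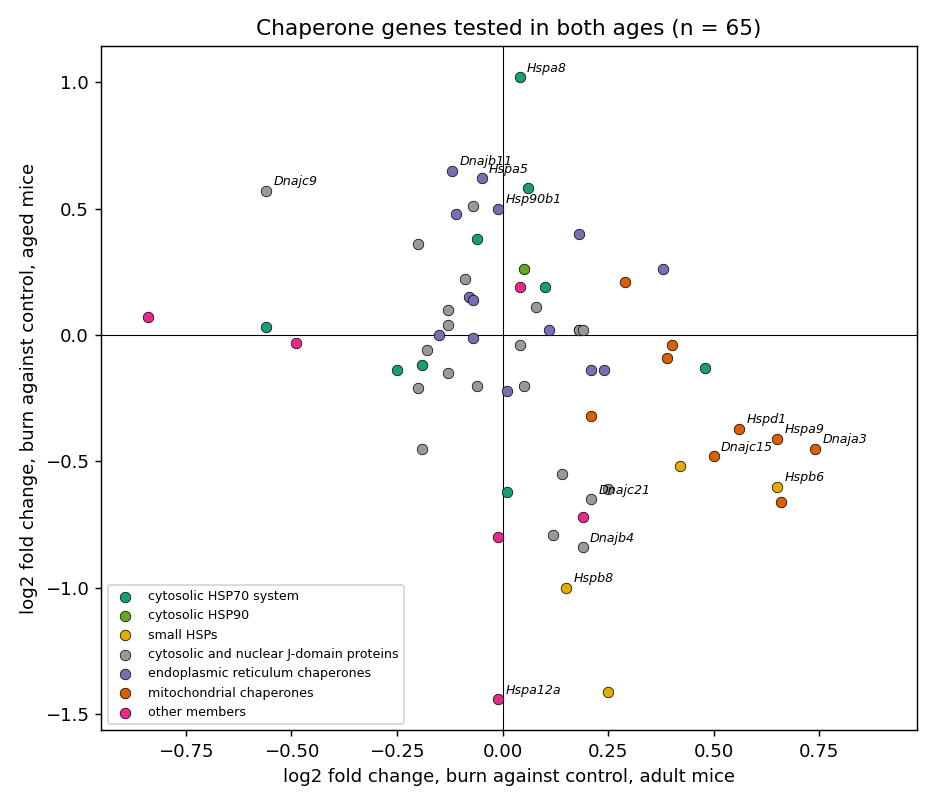
Log2 fold change after burn in adult mice (horizontal axis) and in aged mice (vertical axis) for the 65 chaperone genes tested in both, each point a gene coloured by compartment or class. Mitochondrial members lie right of 0 in adults and, apart from Hspe1, below 0 in aged mice, and the highest point in aged mice is Hspa8 (1.02).

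Aged and adult controls differed in 0 of 69 members tested by edgeR, where 0.424% of all genes were called; 16 had an unadjusted p under 0.05, where 26.3% of all genes did. DESeq2 called 9, of which 8 were higher in aged mice, and 14% of all genes. The members with the widest gaps were of low level. Dnajb13, a J-domain protein of sperm tails and cilia, was at 1.24, 3.16 and 1.58 CPM in adult controls and 10, 7.92 and 14.4 in aged controls (log2 2.43 ± 0.45, adjusted p = 0.0528). The defining genes of the male reproductive tract were near 0 in every library, with 8 of 10 at 0 throughout and a sum of at most 0.104 CPM. Hspb7 was at 0.129, 1.55 and 0.193 CPM against 8.2, 3.25 and 22.1 (log2 4.16 ± 1.31, adjusted p = 0.0929). Hspb2, another muscle member, was at 1.19, 3.68 and 2.16 against 10.1, 4.74 and 15.2 (log2 2.10 ± 0.61), and Hspb6 at 12.8 ± 5.44 against 31.7 ± 7.48 CPM (log2 1.31 ± 0.42). All 3 had every aged control above every adult control, with Aged control 3 highest. The 14 skeletal muscle markers summed to 55.6 to 86.4 CPM in adult controls and to 143, 81.9 and 105 CPM in aged controls 1, 2 and 3, and the part of muscle in these values was not tested.

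Dnajb4 and Hspa2 were also separated, at 41.1 ± 10.4 against 86.6 ± 13.5 CPM (log2 1.08 ± 0.25, adjusted p = 0.073) and 6.84 ± 3.53 against 15.8 ± 0.993 CPM (log2 1.21 ± 0.36, adjusted p = 0.0889). So was Dnajb12, an endoplasmic reticulum membrane member, at 25.5 ± 4.16 against 37.1 ± 2.63 CPM (log2 0.54 ± 0.14). Lower in every aged control were Hsp90ab1 (968 ± 33 against 711 ± 25 CPM, log2 -0.45 ± 0.18) and Hspe1 (65.6, 75.9 and 145 against 56.7, 50.6 and 61.2 CPM, log2 -0.76 ± 0.27, and -0.33 without Adult control 3). In all, 17 members had aged controls wholly higher and 7 wholly lower, where 17.4% and 15.6% of all genes had, and the median log2 difference was 0.03 over the members and -0.06 over all genes. The count of members called was 8 without Adult control 2, all higher, and 3 without Aged burn 2. That last library enters this fit through the estimate of spread. Over all genes the count moved too, from 0 to 2011 with a library left out. Dnajb13, Dnajb12 and Hspb2 were named after their values were seen.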

How the data were processed

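Polyadenylated RNA was sequenced from 12 adipose libraries, which the labels' protocols describe as Trizol extracts made into directional libraries. Per the submitters' processing notes, FastQC, MultiQC, cutadapt, HISAT2 and featureCounts were used, with mm10; no source states versions, annotation or strand setting. The authors deposited raw read counts per Entrez gene. RefSeq on GRCm38.p6 gave names, biotypes and coordinates for 25275 of 27179 identifiers, with 0.366% to 0.76% of counts on unnamed ones, and GENCODE M21 gave exon lengths.

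The tests used edgeR 4.0.16 in R 4.3.3 (glmQLFit, glmQLFTest) with TMM factors and filterByExpr. Burn was fitted on the 6 libraries of an age, and the other contrasts on all 12 with 1 mean per group. SE was taken as |log2 fold change| / sqrt(F). The steps were tested on simulated counts. Within a group, the chi-square between libraries was at least 30.7 per degree of freedom, so none repeated another. The members and lists were chosen with earlier results of these data known. Genes named were a fixed panel, all members called, 2 genes per outside list and marker genes; others are said to be named after seeing their values, or fill out a count. The motif of 3 units was added to the planned motifs after the data were seen. Alternatives were RLE size factors, no filter, DESeq2 1.42.0, a replicate block, all 12 libraries, each library left out, and Adult control 1 and Adult burn 1 left out together.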

Additional observations from a re-analysis of the deposited data

Results flagged for a closer look

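The response to burn differed between the ages in edgeR's test of the difference for 3 chaperone genes. The log2 burn response, aged minus adult, was -1.19 for Dnaja3, -0.87 for Dnajc21 and 0.76 for Dnajb11. For Dnaja3 all 3 burned adults lay above the adult controls and all 3 burned aged mice below the aged controls. For Dnajc21 and Dnajb11 the groups were separated in aged mice and overlapped in adults. Age, burn size and table cannot be told apart in these differences.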

How the results depend on the processing

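Directions of the log2 fold changes printed in the report held under every alternative run; calls did not. Genes called for burn in adults were 62 by DESeq2, 0 with the replicate block, 14 with all 12 libraries, 0 without Adult control 1 and Adult burn 1 together (278 at an unadjusted p under 0.05 in edgeR), and 0 to 5 with a library left out, against 6. For burn in aged mice they were 5011 by DESeq2, 917 with the block and 0 to 5743 with a library left out, against 2534. Members called were 17, 0 and 0 to 21, against 3. With all 12 libraries 10 members were called, and the count over all genes in that fit is not given here. For the difference, genes called were 3783 by DESeq2, 413 with the block, 0 without the adult pair (3450 unadjusted) and 0 to 4039 with a library left out, against 1845; members called were 12, 0, 0 and 0 to 14, against 3. For controls, genes called were 2184, 0, 18 and 0 to 2011, against 66, and members 9 by DESeq2 and 0 to 8 with a library left out, against 0. Where the block left 0 calls in edgeR, 455 genes (burn in adults), 3257 genes (controls), and 17 members (burn in aged mice and the difference alike) had an unadjusted p under 0.05. The cause was not tested.

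The replicate numbers were not taken as pairs: same-numbered libraries had deviations correlated at 0 to 0.23 in adults and -0.21 to -0.07 in aged mice, and not every library correlated best with its own number. Depth did not limit the abundant members. In simulated counts of burn in adults, with 3 libraries a group, 2 of 98 genes changed 2-fold were recovered. For burn in aged mice the simulation changed far fewer genes than were called in the data. Members called there had log2 fold changes of -0.65 to 0.65, so the simulation sets no limit for that test.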

Other observations

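Of the 75 genes, 73 had a read in at least 1 library. Dnajb8 and Dnajc5g had 0 reads in all 12, which in the smallest library allows up to 0.119 CPM (3 reads, counting error only). With these, Dnajb7, Dnajc5b, Hspb3 and Hspb9 failed the filter on low counts in every comparison, as did Dnajc6, Hspa1l and Hspb7 for burn in adults and Dnajc22 for burn in aged mice.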
